A study of Sus scrofa with 12 samples.

Results

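The BCL2 family decides at the mitochondrial outer membrane whether a cell lives or dies by apoptosis, and 10 of its genes were followed here through oocyte maturation. They were chosen by name, as BCL2L10, MCL1, BCL2L1, BCL2, BAX, BAK1, BOK, BID, BAD and BCL2L11. The choosing rule names no measured value, but earlier results of these data were known when the genes were chosen. Of these 10 genes, 6 could be matched to one of the 31908 Ensembl gene identifiers measured (MCL1, BCL2L1, BAK1, BOK, BID and BAD), 5 were above 0 in at least 1 library, and 1, BCL2L1, had a mean of at least 1 FPKM and entered the test across 7013 genes. BCL2L10, BCL2, BAX and BCL2L11 had no matching identifier here and were not analysed.

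The study collected porcine oocytes before culture (0h) and after 22h or 46h in maturation medium, and sequenced 4 libraries of 20 pooled oocytes from each time, 12 in all. All came from cumulus-oocyte complexes of antral follicles of prepubertal gilts, and all were stripped of cumulus cells before lysis. Those of 22h and 46h had been cultured in the same medium with gonadotropins, epidermal growth factor and follicular fluid, those of 0h had not been cultured, and the labels give no other treatment. RNA was amplified by SMART-Seq2, which primes cDNA at the poly(A) tail, and expression was given as FPKM (fragments per kilobase of transcript, scaled to the fragments of the library), a value relative to transcript length and to the library. The labels call the samples ovarian cells of the cell type oocyte, and nothing in them says that replicates came from separate animals or collections, so p-values measure only the spread between these libraries.

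Apoptosis through mitochondria is set by 3 kinds of BCL2 family protein. The anti-death proteins (BCL2, BCL2L1, MCL1, BCL2L10) hold the effectors BAX and BAK1 in check. The effectors, among which BOK is also counted, open pores through which cytochrome c leaves and caspases are activated. The BH3-only proteins (BID, BAD, BCL2L11) carry a short helix, BH3, that fits a groove of the anti-death proteins or acts on the effectors, and in the ovary this balance is known to decide which oocytes survive.

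The helix that these proteins share is shown as coding sequence for the 8 listed genes in which it could be found, since binding through it is what makes the family one system. Coding sequence was read from the RefSeq annotation of Sscrofa11.1, and each stretch of 45 bases is written 5′ to 3′ on the coding strand with the 6 codons of the BH3 core in capitals. The core was searched as a leucine, any 3 residues, a glycine, serine or alanine, and an aspartate.
BCL2L1: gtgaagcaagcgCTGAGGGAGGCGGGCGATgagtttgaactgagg
BCL2: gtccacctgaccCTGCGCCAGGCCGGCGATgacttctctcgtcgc
MCL1: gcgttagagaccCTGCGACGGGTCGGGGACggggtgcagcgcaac
BAX: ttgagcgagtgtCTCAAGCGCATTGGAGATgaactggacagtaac
BAK1: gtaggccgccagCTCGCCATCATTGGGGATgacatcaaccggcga
BID: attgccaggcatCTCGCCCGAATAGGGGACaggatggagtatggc
BAD: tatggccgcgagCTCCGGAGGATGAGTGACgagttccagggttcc
BCL2L11: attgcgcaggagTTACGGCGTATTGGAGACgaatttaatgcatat

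The stretch of BCL2L1 lay at chr17:35413741-35413785 on the minus strand with its core at residues 90 to 95 of a protein of 233. That of MCL1 was at chr4:98562861-98562905 (plus strand), that of BAK1 at chr7:29811733-29811777 (minus), that of BID at chr5:69851339-69851383 (minus) and that of BAD at chr2:7841819-7841863 (plus). Base by base, the stretch of BCL2L1 shared 25 of 45 bases with BCL2, 20 with MCL1 and 12 with BID. BAK1 held a second match further along, which is not shown, and the coding models read for BCL2L10 and BOK held none, which says only that these letters were not in those models. The pattern is short and was present in 6806 of 19153 RefSeq coding models (35.5%), so a match is a description only.

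Of the whole series, the following bears on these genes. Total FPKM lay between 697468 and 782309 in the libraries of 0h, between 704433 and 773647 in those of 22h and between 779556 and 802184 in those of 46h, and read counts were not used here, so the depth behind a value is unknown and no detection limit can be given. Oocyte markers were present, with 10 of 12 listed matched and all 10 tested. Their summed FPKM lay between 12600 and 19568 in the libraries of 0h, between 16915 and 25323 in those of 22h and between 4580 and 8391 in those of 46h. At 46h against 0h, 7 of the 10 were called lower and 0 higher (39.1% and 16.8% of all genes tested). Among the 7 were GDF9 (-4.42 in log2), ZP3 (-5.07), FIGLA (-4.43) and ZP2 (-1.86), while MOS (-0.84), BMP15 (-0.27) and KIT (0.03) were not called. Most of these markers thus moved with the fall of BCL2L1 given below, and their part in it was not tested. The summed FPKM of the 13 matched cumulus and granulosa markers lay between 2.45 and 7.58 at 0h, between 2.88 and 4.62 at 22h and between 3.92 and 6.20 at 46h, most of it STAR, while LHCGR, AMHR2 and INHA were at 0 in every library. Of the 5 blood and leukocyte markers, CD68, CD14 and HBB were at 0 in every library, and LYZ alone was tested. Of 15 genes that every cell uses, 13 were tested, whereas ACTB was listed at 0 to 0.70 FPKM over the 12 libraries and POLR2A at 0.06 to 0.54. RPS18, one of the 13, was at 4.17 to 12.05 FPKM at 0h, at 0.52 to 2.65 at 22h and at 0 in all 4 libraries of 46h. An FPKM at or near 0 can therefore be a failed estimate, or belong to an identifier mismatched with its symbol. Such values are given below as listed, also where they enter a test. Replicate 4 of 0h stood apart, with a correlation across genes of 0.934 to 0.970 with the other 0h libraries, against 0.961 to 0.989 for the 15 other same-stage pairs. Calls, signs and ranks of family genes that turned without this library are given also without it.

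Of the listed anti-death genes with values, BCL2L1 and MCL1, BCL2L1 was the higher in every library, and its level was lower at 46h than at both earlier stages. BCL2L1, also known as BCL-X, binds and restrains both effectors and BH3-only proteins, and its pig gene (ENSSSCG00000035357) spans chr17:35366139-35415798 on the minus strand of Sscrofa11.1 in RefSeq. Its level was 35.3, 21.1, 43.9 and 55.1 FPKM in replicates 1 to 4 of 0h. At 22h the values were 28.5, 19.6, 39.1 and 26.2 FPKM, and at 46h they were 5.69, 6.30, 12.1 and 5.77 FPKM. The 0h and 22h libraries overlapped, whereas all 4 libraries of 46h lay below all 8 earlier ones, and the highest library of 46h was replicate 3.

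The mean of BCL2L1 was 38.9 ± 14.4 FPKM (SD, n = 4) at 0h, 28.3 ± 8.11 at 22h and 7.47 ± 3.12 at 46h. In the limma fit of log2(FPKM + 1), the change of BCL2L1 from 0h to 22h was -0.40 in log2 (SE 0.30, adjusted p = 0.326), which did not pass the thresholds of an adjusted p under 0.05 and a fold change over 1.5. From 22h to 46h it was -1.81 (SE 0.30, adjusted p = 0.000196), and from 0h to 46h it was -2.22 (SE 0.30, adjusted p = 1.67e-05), a 4.65-fold lower value on this scale. The fall between 22h and 46h thus passed and that before 22h did not, and the difference between these steps was not tested. With replicate 4 of 0h left out, BCL2L1 at 46h stood -2.03 from 0h on the log2 scale (SE 0.30, limma adjusted p = 4.06e-05).

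By count, none of the listed genes in the fit passed at 22h against 0h (0 of 1 by limma, also 0 of 1 at an unadjusted p under 0.05), where 7.84% of all 7013 genes were called higher and 18.9% lower. At 46h against 22h, 1 of 1 was lower, beside 9.87% higher and 32.6% lower among all genes. At 46h against 0h, 1 of 1 was lower, beside 16.8% higher and 39.1% lower. As deposited, lower calls were thus common at 46h, but the split moved with the scaling: of the genes called at 46h against 0h, 30.1% were higher as deposited, 46.9% after median-of-ratios scaling and 61.7% after quantile normalization, and at 46h against 22h the shares were 23.3%, 44.0% and 59.5%. Over all genes tested, the median change in log2 was -0.0012 from 0h to 22h, -0.26 from 22h to 46h and -0.25 from 0h to 46h. Relative to the other genes tested, the level of BCL2L1 had a percentile of 78.8 at 0h, 75.2 at 22h and 59.2 at 46h.

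**Figure D1:**
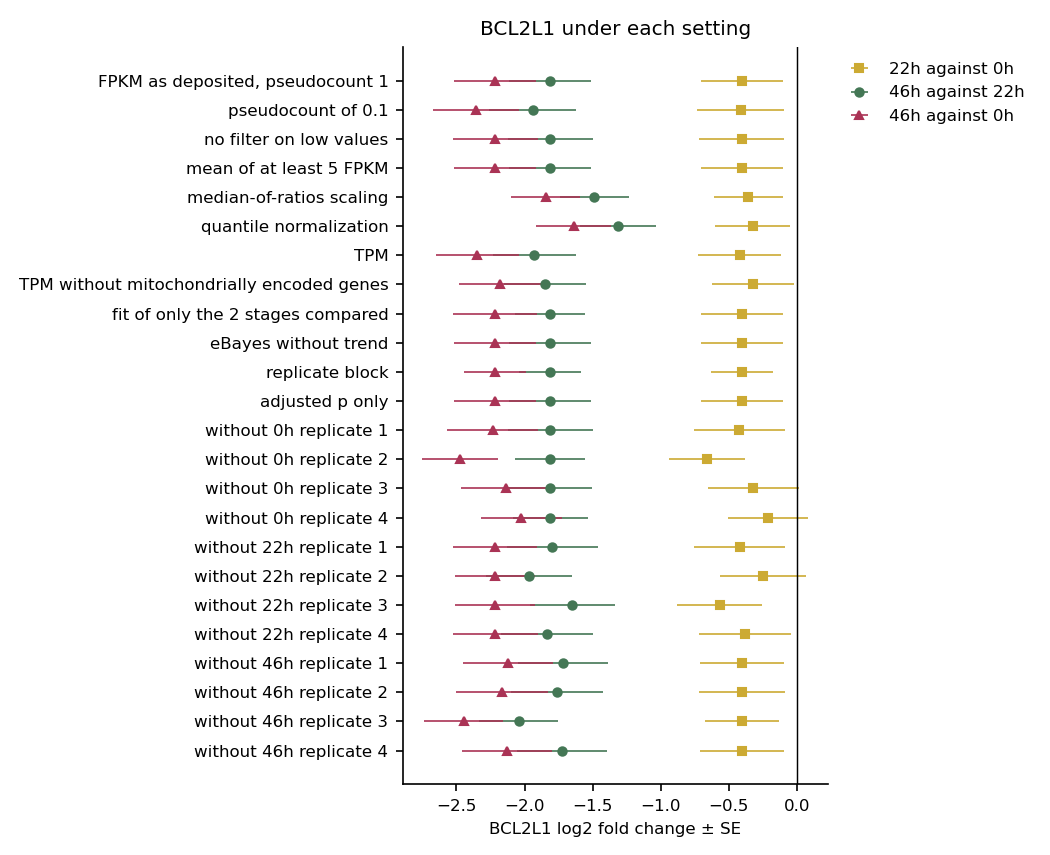
Log2 fold change of BCL2L1 on the x axis (point, with its SE as a bar) for the 3 comparisons under FPKM as deposited and each alternative setting on the y axis. The comparisons of 46h with 0h lie between -2.47 and -1.64 and those of 46h with 22h between -2.04 and -1.31, all past the thresholds, and those of 22h with 0h lie between -0.66 and -0.21, none past them.

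The direction of BCL2L1 did not depend on how libraries were scaled. Over 23 alternatives the change from 0h to 46h ranged from -2.47 to -1.64, with limma adjusted p from 4.22e-06 to 0.000154, and the smallest fall was with quantile normalization. Since FPKM is relative to the library, and each library pools 20 oocytes, a lower level in every oocyte, a loss from some of the oocytes and a change in the rest of the polyadenylated RNA cannot be told apart. RNA primed at the poly(A) tail also enters a library by its tail, so the amount of transcript and the length of its tail cannot be told apart either. RefSeq places an uncharacterised gene, LOC106506650, inside BCL2L1 on the other strand, with no exon shared.

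MCL1, a short-lived anti-death protein that many cells rely on, was listed at or near 0. The gene (ENSSSCG00000039314, chr4:98562092-98567014, plus strand) stood at 0, 0.22, 0.25 and 0 FPKM in replicates 1 to 4 of 0h, at 0, 0, 0.36 and 0 at 22h, and at 0, 0.03, 0.01 and 0 at 46h. Libraries of every stage were at 0, so the stages overlapped. A two-sided exact permutation test on log2(FPKM + 1) gave p = 0.429 at 46h against 0h and p = 1 in both other comparisons, with 4 against 4 libraries.

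BCL2L1 therefore made up almost all of what was measured of the listed genes. Its share of their summed FPKM was between 96.6% and 100% in the 8 libraries of 0h and 22h and between 99.0% and 99.5% in those of 46h. The sum itself lay between 21.8 and 57.1 FPKM at 0h, between 19.6 and 39.7 at 22h and between 5.75 and 12.2 at 46h. These shares leave out the 4 unmatched genes, take values at or near 0 as listed, and are a description of the 6 matched ones.

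The effectors were listed at or near 0 throughout. BAK1, which sits in the outer membrane and forms pores there (ENSSSCG00000001516, chr7:29808849-29815345, minus strand), was at 0.04 FPKM in replicates 1 and 4 of 0h and at 0 in the other 10 libraries. BOK, an effector known from reproductive tissue (ENSSSCG00000032684, chr15:140171134-140184126, plus strand), was listed at 0 in all 12. By the exact permutation test BAK1 gave p = 0.429 for 22h and for 46h against 0h, and BOK had no spread to test. Both share exonic sequence with an uncharacterised gene on the other strand in RefSeq (LOC102162214 for BAK1 and LOC102164681 for BOK), and SMART-Seq2 reads do not mark the strand. BAX, the other main effector, was not analysed here, so the effector side of the family was measured only in part.

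Of the listed BH3-only genes, BAD and BID stood at low values, the highest of each at 0h, and BCL2L11 was not analysed here. BAD, which binds BCL2L1 and BCL2 and is controlled by phosphorylation (ENSSSCG00000013033, chr2:7831192-7842864, plus strand), was at 0.18, 0.36, 0.57 and 1.36 FPKM in replicates 1 to 4 of 0h. At 22h it was at 0, 0, 0 and 0.14 FPKM, and at 46h it was listed at 0 in all 4 libraries. The 0h libraries overlapped with neither later stage. The exact two-sided permutation test gave p = 0.0286 at 22h and at 46h against 0h, the smallest that 4 against 4 libraries can give, and p = 1 at 46h against 22h. These tests take the zeros of BAD as listed, in 3 of 4 libraries of 22h and 4 of 4 of 46h, and such zeros can be failed estimates.

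With no filter on low values, BAD was also called lower by limma in both comparisons with 0h (adjusted p = 0.0320 and 0.00849). In that fit 9.71% of all 17633 genes were called at 22h against 0h, 24.9% at 46h against 0h and 15.7% at 46h against 22h, higher and lower together. The highest value came from replicate 4 of 0h, and without it the exact p of BAD was 0.0286 against both 22h and 46h. With any 1 of the 22h or 46h libraries left out it was 0.0571. The gene shares exonic sequence with LOC106509317 on the other strand and lies 182 bases from GPR137, and reads of these genes cannot be assigned by strand.

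BID, which is cut by caspase-8 and carries the death receptor signal to mitochondria (ENSSSCG00000000769, chr5:69849007-69874647, minus strand), was at 0.15, 0.07, 0.63 and 0.53 FPKM at 0h. It was at 0.31, 0, 0.28 and 0.42 at 22h and at 0.06, 0, 0.07 and 0.06 at 46h. At 46h no library exceeded the lowest of 0h, where replicate 2 and the highest 46h library were equal. The exact permutation p was 0.0571 at 46h against 0h, 0.143 at 46h against 22h and 0.629 at 22h against 0h, so none passed 0.05 with all libraries. With replicate 2 of 0h left out the exact p of BID at 46h against 0h was 0.0286, and with replicate 2 of 22h left out that at 46h against 22h was 0.0286. Limma with no filter gave BID an unadjusted p of 0.0312 and an adjusted p of 0.0848 at 46h against 0h. LOC110260761 shares exonic sequence with it on the other strand. Of the 4 listed genes under the filter with any value above 0, only BAD was lower than at 0h with an exact p under 0.05, both at 22h (beside 4.6% of all 10620 such genes) and at 46h (beside 14.4%). At 46h against 22h it was 0 of 4, beside 8.41%, and limma with no filter also gave 0 at an unadjusted p under 0.05.

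**Figure D2:**
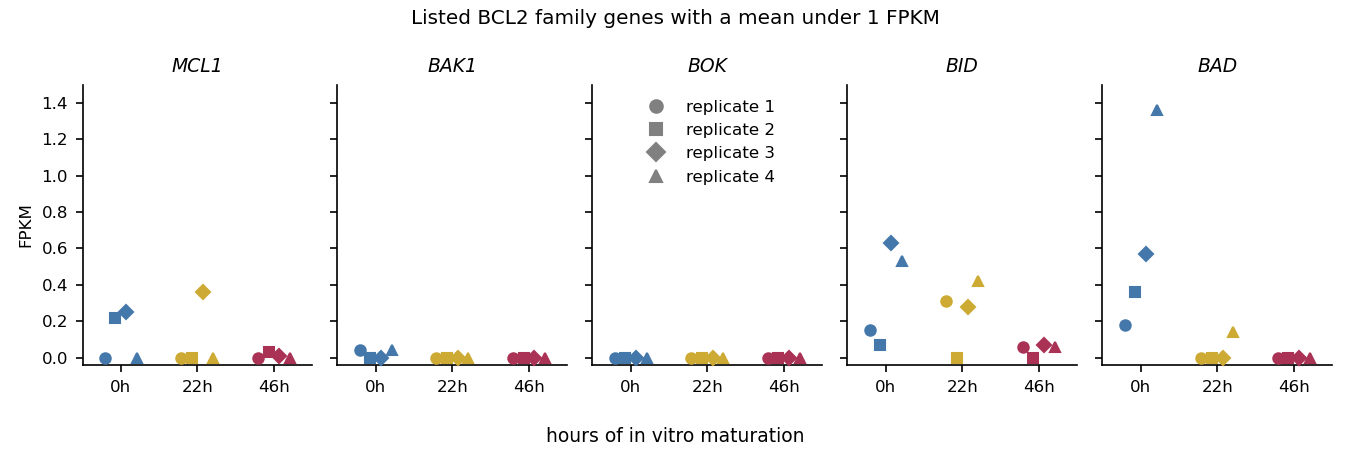
FPKM of the 5 listed genes with a mean under 1 FPKM (y axis, linear) by hours of maturation (x axis), with 1 point per library and a marker shape for each replicate number. BAD is above 0 in all 4 libraries of 0h and in 1 of the 8 later ones, BID is at most 0.07 at 46h, and BOK is at 0 in all 12.

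Other family genes were measured from a list of 13, of which 10 were matched and 6 were tested. BCL2L12, BIK and HRK had no matching identifier here. At 46h against 0h, 4 of the 6 were lower and 0 higher (39.1% and 16.8% of all genes), with a median change of -0.73 in log2 against -0.25 for all genes. At 22h against 0h 1 was lower and 0 higher (18.9% and 7.84% of all genes), at 46h against 22h 3 were lower and 0 higher (32.6% and 9.87%), and in no comparison was a gene of this list higher at an unadjusted p under 0.05 by limma. Of the 4 under the filter, BBC3, a BH3-only gene known as PUMA, was listed at 0 in all 12 libraries, BCL2A1 was above 0 in 1 and BCL2L15 in 3, and BMF, another BH3-only gene, was at 0.09 to 0.87 FPKM in all 12.

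BCL2L2, the anti-death gene BCL-W, passed in no comparison. Its level was 6.11, 4.19, 10.3 and 38.1 FPKM in replicates 1 to 4 of 0h, 19.3, 9.24, 9.01 and 5.25 at 22h, and 10.1, 5.89, 5.74 and 5.18 at 46h. The 3 stages overlapped, and replicate 4 of 0h was the highest library. From 0h to 46h the change of BCL2L2 was -0.59 in log2 (SE 0.51, limma adjusted p = 0.329), and without replicate 4 of 0h it was 0.01 (SE 0.35). From 0h to 22h it was -0.08 (SE 0.51), and without that library 0.51 (SE 0.35, limma adjusted p = 0.270). Within a library, log2 of the ratio of BCL2L1 to BCL2L2 lay between 0.53 and 2.53 at 0h, between 0.57 and 2.32 at 22h and between -0.83 and 1.08 at 46h. The ranges of 0h and 46h overlapped only through replicate 4 of 0h, without which the lowest value of 0h was 2.09, above all of 46h, and those of 22h and 46h overlapped through replicate 1 of 22h.

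BNIP3 and BNIP3L, related proteins of the outer membrane that recruit the machinery of mitophagy, were both lower at 46h, and the fold change of BNIP3 at 46h against 0h was the largest of the 7 tested family genes. BNIP3 was at 7.41, 4.89, 11.7 and 22.1 FPKM at 0h, at 4.71, 1.39, 3.24 and 1.81 at 22h, and at 0.11, 0.15, 0.23 and 0.20 at 46h. No library of one stage overlapped with another, and the highest value was again replicate 4 of 0h. In log2 the change of BNIP3 was -1.62 from 0h to 22h (limma adjusted p = 0.00368) and -3.23 from 0h to 46h (SE 0.36, adjusted p = 2.08e-06), and without replicate 4 of 0h the latter was -2.87. With a 46h mean of 0.17 FPKM, the size of this change rests on the pseudocount, and with 0.1 in place of 1 it was -5.21. In RefSeq BNIP3 lies 127 bases from LOC110256840 on the other strand, and reads of these genes cannot be assigned by strand.

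BNIP3L was at 25.2, 21.8, 20.8 and 17.9 FPKM at 0h, at 16.5, 14.4, 14.96 and 16.3 at 22h, and at 5.63, 5.58, 5.54 and 5.65 at 46h. The stages again did not overlap, and the 46h libraries lay between 5.54 and 5.65 FPKM. The change of BNIP3L in log2 was -0.43 from 0h to 22h, under the fold threshold (limma adjusted p = 0.0305), and -1.75 from 0h to 46h (SE 0.14, adjusted p = 7.68e-08).

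BCL2L14, a family member named BCL-G, fell by less. It was at 37.5, 45.9, 30.2 and 28.0 FPKM at 0h, at 16.6, 16.8, 31.9 and 29.6 at 22h, and at 18.6, 24.6, 20.3 and 23.3 at 46h. All 4 libraries of 46h lay below those of 0h, with a log2 fold change of -0.66 (SE 0.23, limma adjusted p = 0.0230). The call was lost under 7 of 23 alternatives. By scaling, these were median-of-ratios, quantile normalization and TPM leaving out mitochondrially encoded genes. By library, they were the fits without replicate 1 or 2 of 0h and without replicate 1 or 3 of 46h. The value nearest to 0 was -0.11, with quantile normalization. At 22h against 0h the change of BCL2L14 was -0.59 in log2 (limma adjusted p = 0.0666) and was not called, but it was called lower without replicate 4 of 0h (-0.70, adjusted p = 0.0366), replicate 3 of 22h (-0.75, adjusted p = 0.0288) or replicate 4 of 22h (-0.72, adjusted p = 0.0491). PMAIP1, the BH3-only gene NOXA whose product binds MCL1, was at 2.11, 1.73, 2.06 and 1.44 FPKM at 0h and at 0.43, 0.62, 0.62 and 0.87 at 46h. The log2 fold change of PMAIP1 was -0.79 (SE 0.14, limma adjusted p = 0.000247), which with quantile normalization was -0.0981 (adjusted p = 0.582) and not called. The 22h libraries, at 1.18, 1.10, 1.46 and 1.53 FPKM, overlapped with those of 0h and not with those of 46h. From 22h to 46h the difference of PMAIP1 was -0.51 in log2 (limma adjusted p = 0.0101), under the fold threshold, and it was called lower with a pseudocount of 0.1 (-0.97), with TPM (-0.63), with TPM leaving out mitochondrially encoded genes (-0.61) and by the adjusted p alone.

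BCL2L13, a relative that lies 2369 bases from BID on the opposite strand of chromosome 5, had its highest mean at 22h. It was at 2.47, 1.19, 3.84 and 7.85 FPKM at 0h, at 6.57, 3.80, 4.89 and 3.94 at 22h, and at 1.74, 2.21, 2.38 and 1.38 at 46h. It was called lower at 46h against 22h only, by -0.98 in log2 (SE 0.33, limma adjusted p = 0.0234), and at 46h against 0h the value was -0.55 (limma adjusted p = 0.157). The call at 46h against 22h was lost under 5 of 22 alternatives: with no filter (limma adjusted p = 0.0763), with quantile normalization (-0.46, adjusted p = 0.163), and without replicate 1 of 22h, replicate 1 of 46h or replicate 4 of 46h (adjusted p = 0.0690, 0.0518 and 0.0666). Without replicate 2 of 0h BCL2L13 was called lower at 46h against 0h, by -0.87 in log2 (adjusted p = 0.0155). Without replicate 4 of 0h its rise at 22h passed, by 0.78 in log2 (SE 0.25, adjusted p = 0.0258).

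**Figure D3:**
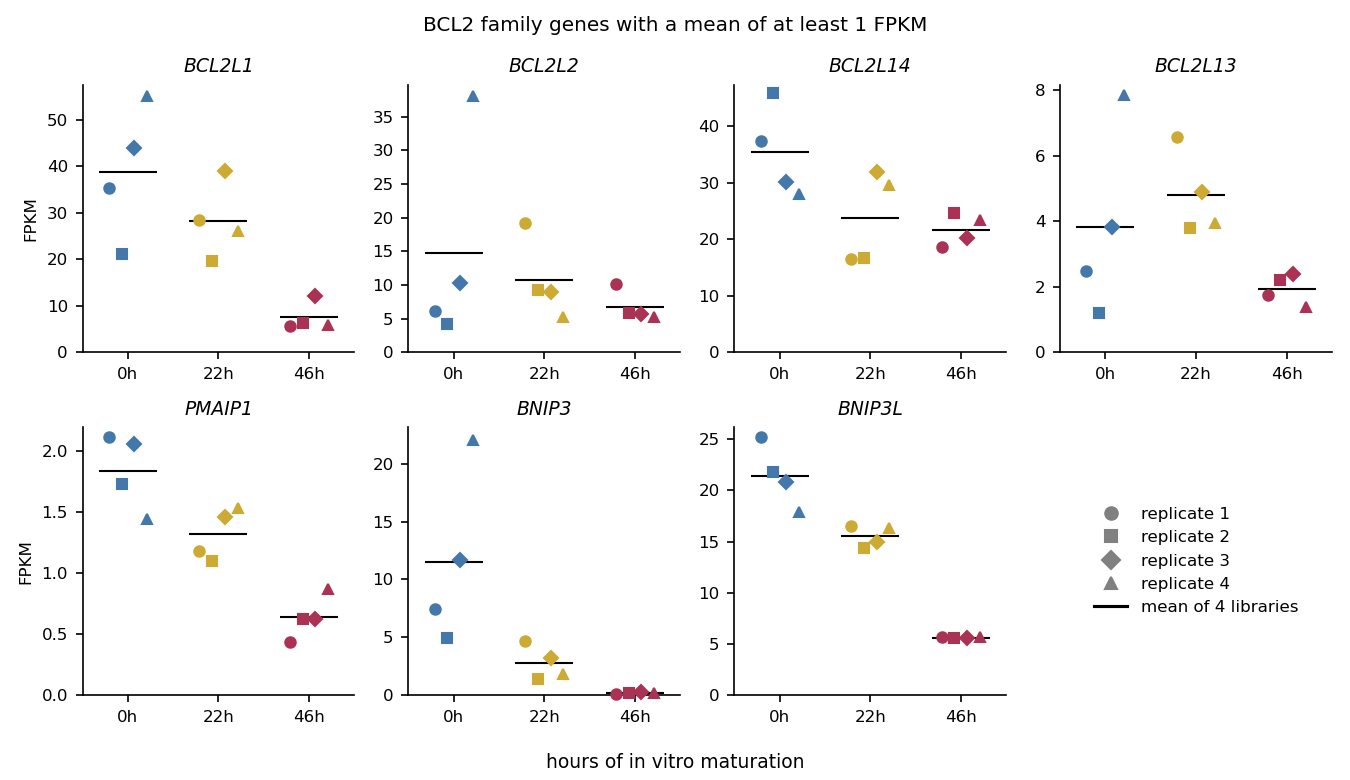
FPKM of the 7 tested BCL2 family genes (y axis, linear from 0, scaled for each gene) by hours of maturation (x axis), with 1 point per library, a marker shape for each replicate number and a line at the mean of 4. BCL2L1 falls to 5.69 to 12.1 FPKM at 46h and BNIP3 to 0.11 to 0.23, and BCL2L14 is at 18.6 to 24.6, below its 28.0 to 45.9 at 0h.

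The order of levels changed accordingly, as FPKM compares genes per length. At 0h and at 22h the order by mean FPKM was BCL2L1, BCL2L14, BNIP3L and BCL2L2, and the library ranges of BCL2L1 and BCL2L14 overlapped at both stages. Replicate 4 of 0h had BCL2L1 at 55.1 and BCL2L14 at 28.0 FPKM, and without it the 0h mean of BCL2L14 was the higher. At 46h BCL2L14 stood first with a mean of 21.7 FPKM, its libraries above all those of BCL2L1, followed by BCL2L1 (7.47), BCL2L2 (6.73) and BNIP3L (5.60). The ranges of BCL2L1 and BCL2L2 and those of BCL2L2 and BNIP3L overlapped at 46h. BNIP3 went from the fifth place at 0h, with 11.5 FPKM and a range overlapping that of BCL2L2, to the last at 46h, with 0.17. In replicate 4 of 0h BCL2L2 was at 38.1 and BNIP3 at 22.1 FPKM, and without it the 0h mean of BNIP3 was above that of BCL2L2.

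The genes whose course was most like that of BCL2L1 were CCDC3, ATG3 and TAOK2, by the root mean square difference of gene-centred log2(FPKM + 1) over the 12 libraries. It was 0.23 for CCDC3, 0.28 for ATG3 and 0.28 for TAOK2, beside an SD of 1.05 for BCL2L1 itself. Their means at 0h, 22h and 46h were 35.0, 19.9 and 5.15 FPKM for CCDC3, 17.995, 16.7 and 3.98 for ATG3, and 6.39, 3.70 and 0.64 for TAOK2. For BAD, the listed gene with the next highest mean, they were ZSCAN23 (0.14), TMEM245 (0.17) and LSM11 (0.17), beside an SD of 0.37 for BAD. These are descriptions over libraries that share stages, among genes chosen from all those tested and named.

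Genes that act with the family were followed from 5 more lists. Downstream, of 13 genes of caspases and the apoptosome 5 were tested, of which 2 were lower and 0 higher at 46h against 0h (39.1% and 16.8% of all genes; also 0 higher at an unadjusted p under 0.05 by limma), with a median of -0.20 in log2 against -0.25 for all genes. AIFM1, a mitochondrial flavoprotein that can move to the nucleus in death, went from a mean of 14.2 ± 5.92 FPKM (SD, n = 4) at 0h to 2.90 ± 0.81 at 46h (log2 fold change -1.90, limma adjusted p = 0.000186). CYCS, cytochrome c, which leaves the mitochondria once the effectors open pores, was at 30.1, 32.6, 32.9 and 21.7 FPKM in replicates 1 to 4 of 0h and between 13.5 and 23.2 at 46h, and the stages overlapped through replicate 4 of both. Its change from 0h to 46h was -0.68 in log2 (SE 0.20, limma adjusted p = 0.00816), and it missed the thresholds after median-of-ratios scaling (-0.30), with quantile normalization (-0.13) or without replicate 3 of 46h (-0.56). CASP9, the caspase of the apoptosome, was at most 0.14 FPKM in any library.

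Of the 7 listed caspase inhibitors 4 were tested, with 1 higher and 1 lower at 46h against 0h (16.8% and 39.1% of all genes) and a median change of 0.01 in log2 against -0.25. BIRC5 (survivin), also a part of the chromosomal passenger complex, was at 31.5 to 46.3 FPKM at 0h, at 7.08 to 15.5 at 22h and at 1.63 to 2.27 at 46h, and the stages did not overlap (46h against 0h -3.79, SE 0.21, limma adjusted p = 2.11e-09). BIRC6, a large ubiquitin ligase, was higher at 46h (0.63, adjusted p = 0.00134), at 2.80 to 3.66 FPKM against 1.42 to 2.03 at 0h, but fell under the fold threshold without replicate 2 of 0h (0.57) or replicate 1 of 46h (0.58). XIAP, the direct caspase inhibitor, did not pass (0.21, adjusted p = 0.362).

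For the turnover of the MCL1 protein, 5 of 7 listed genes were tested, with 1 higher and 2 lower at 46h against 0h (16.8% and 39.1% of all genes) and a median change of 0.03 in log2 against -0.25. GSK3B, the kinase that marks MCL1 for destruction, was at 4.26 to 6.20 FPKM at 0h, at 2.78 to 3.93 at 22h and at 0.44 to 1.55 at 46h (-1.82, limma adjusted p = 1.91e-06). BTRC, a subunit of an E3 ligase, fell likewise, from 15.6 to 20.02 FPKM at 0h to 3.99 to 4.78 at 46h (-1.81, adjusted p = 9.49e-08). MARCHF5, a ubiquitin ligase of the outer membrane, was higher (0.59, adjusted p = 0.00616), though it fell under the fold threshold with TPM (0.53) and without replicate 1 or 2 of 0h or replicate 1, 3 or 4 of 46h (0.49 to 0.58).

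Among partners of the family at the outer membrane and the endoplasmic reticulum, 5 of 7 listed genes were tested, with 1 higher and 3 lower at 46h against 0h (16.8% and 39.1% of all genes), and a median log2 fold change of -1.60 against -0.25 for all genes. The 1 higher was VDAC1, a channel of the outer membrane. It was at 36.9 to 47.4 FPKM at 0h, at 57.1 to 84.1 at 22h and at 63.7 to 97.0 at 46h (46h against 0h 0.94, limma adjusted p = 0.000274). VDAC3, another such channel, went the other way. It was at 293, 296, 284 and 191 FPKM at 0h, at 38.8 to 85.6 at 22h and at 10.4 to 14.1 at 46h, with no overlap between stages (-4.39, SE 0.24, limma adjusted p = 1.44e-09). TMBIM6 (BAX inhibitor 1), a calcium channel-like protein of the endoplasmic reticulum, had a different course: it lay between 124 and 145 FPKM at 0h, between 194 and 236 at 22h and between 5.66 and 9.86 at 46h. It was called higher at 22h against 0h (0.67, adjusted p = 0.0104) and lower at 46h against 0h (-3.97, adjusted p = 2.41e-10). ITPR1, the inositol trisphosphate receptor, was lower at 46h (-1.60, adjusted p = 3.92e-06).

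Upstream, of 9 genes of damage sensing 6 were tested, with 2 higher and 3 lower at 46h against 0h (16.8% and 39.1% of all genes) and a median change of -0.55 in log2 against -0.25. CHEK1, the checkpoint kinase that acts under ATR, was at 16.8, 20.5, 11.1 and 6.67 FPKM at 0h, at 10.7 to 35.0 at 22h and at 61.5 to 71.5 at 46h (2.29, SE 0.35, limma adjusted p = 5.16e-05). CHEK2, which acts under ATM and on TP63 in oocytes, moved the other way, from 10.9 to 20.9 FPKM at 0h to 1.97 to 2.19 at 46h (-2.46, SE 0.20, adjusted p = 9.10e-08). TP63 was also lower at 46h against 0h (-1.20, limma adjusted p = 2.82e-05), and ATM was higher (0.94, limma adjusted p = 0.000137). MDM4, a partner of the ubiquitin ligase MDM2, was already lower at 22h, by -1.29 in log2 from 0h (limma adjusted p = 0.000168), and by -1.42 at 46h (adjusted p = 1.05e-05). TP73 was listed at 0 in all 12 libraries.

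**Figure D4:**
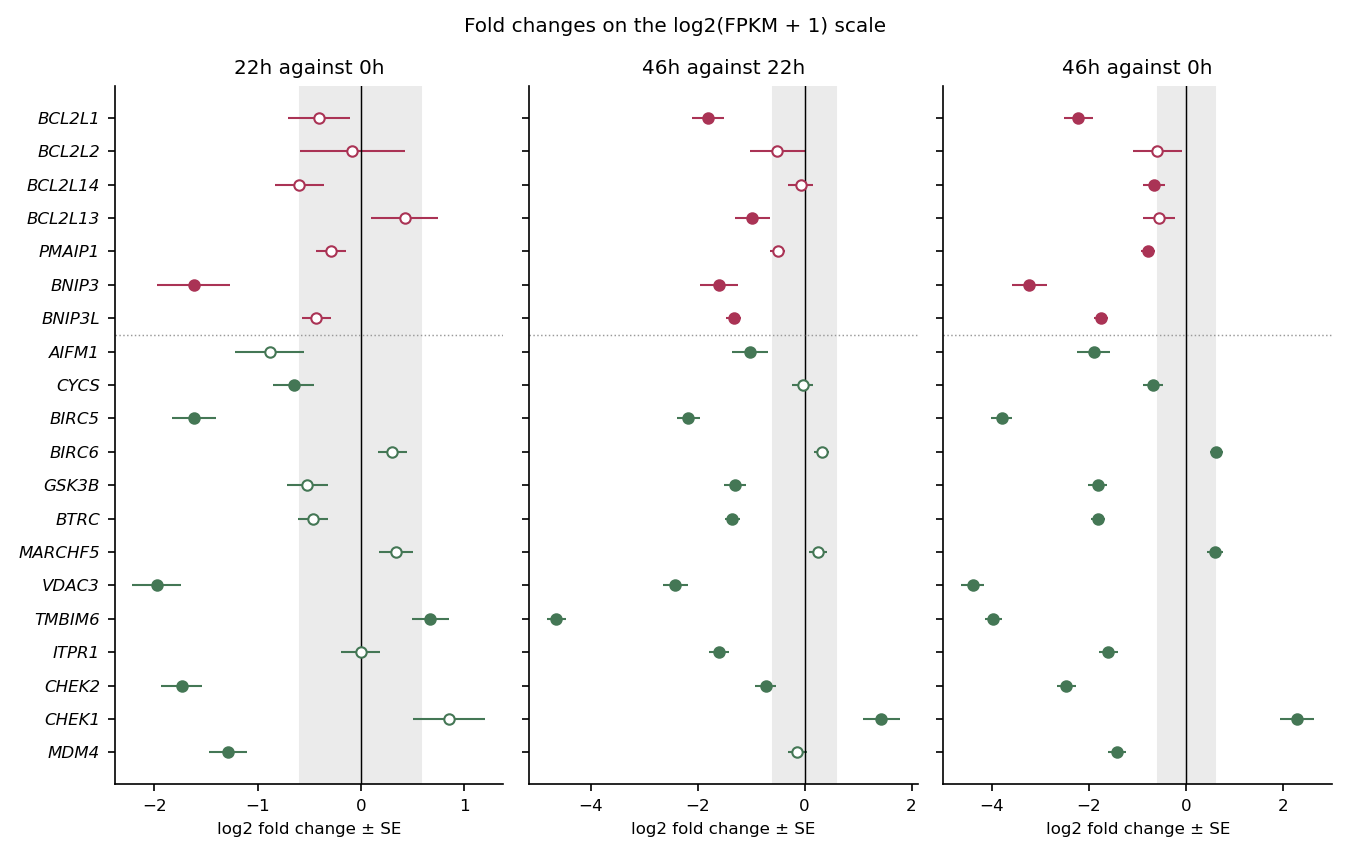
Log2 fold change on the log2(FPKM + 1) scale (x axis, point with its SE as a bar) of the 7 tested BCL2 family genes (above the dotted line) and 13 genes of the other lists (below it) in the 3 comparisons. Filled points passed an adjusted p under 0.05 and a fold change over 1.5, open points did not, and the grey band spans fold changes up to 1.5; BNIP3 alone of the family is filled in all 3 panels.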

How the data were processed

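Transcript levels were measured in 12 libraries of denuded porcine oocytes, 4 for each of 0h, 22h and 46h. The deposited files hold FPKM, which the authors made by checking read quality (FastQC), trimming with Trim Galore, aligning to Sscrofa11 with STAR and quantifying genes with RSEM. HTSeq counts were not used here, and the annotation release is not given in the sources used here. Reads that match several places are divided by RSEM in proportion, so near-identical copies can share them.

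Identifiers were named from a gene name table (15029) and, for names only, from the study's gene table (172 more, BNIP3 among them). Locations and coding sequence came from the RefSeq annotation of Sscrofa11.1 by symbol. Values were fitted as log2(FPKM + 1) with limma 3.58.1 in R 4.3.3 (lmFit, eBayes with an intensity trend; stage as the only factor; 12 libraries) for the 7013 genes averaging 1 FPKM or more. P-values were two-sided and adjusted over these genes by Benjamini-Hochberg, and a gene was called with an adjusted p under 0.05 and a fold change over 1.5. Fold changes on this scale understate those of low genes. Listed genes under the filter had an exact permutation test over 70 arrangements. Named genes were all 10 listed genes, other family genes averaging 1 FPKM or more, and up to 3 called genes per pathway list with the largest change at 46h against 0h. XIAP, CASP9, VDAC1, TP63, ATM, TP73 and the family genes under the filter were added after their values were seen. The members and lists were chosen with earlier results of these data known, and the genes that every cell uses were picked after seeing the data. In simulated data for 46h against 0h (7013 genes), 64 of 100 genes changed 2-fold and 97 of 100 changed 4-fold were called, none in the wrong direction, with 4 false calls. A few genes of the lists are not reported here and stand in no list count. The replicate numbers were not taken to pair the libraries, as not every same-numbered pair correlated over 0.1. The alternatives were another pseudocount (0.1), no filter or 5 FPKM, median-of-ratios, quantile and TPM scaling (TPM also leaving out mitochondrially encoded genes), a fit of 2 stages, eBayes without trend, a replicate block, the adjusted p alone and each library left out. Python 3.11.15, numpy 2.4.6, pandas 2.3.3 and matplotlib 3.10.9 were used.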

Additional observations from a re-analysis of the deposited data

Results flagged for a closer look

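In 8 of the 75 groups of 4 libraries looked at (25 genes in 3 stages), 1 library lay far from the others by Dixon's test (chance alone gives about 1 in 20 for normally distributed values, a rate that does not hold where 3 or 4 libraries are at 0, as for MCL1 and BAD at 22h and for BOK). Of the listed genes, MCL1 at 22h was 0.36 FPKM in replicate 3 with the other libraries at 0, BCL2L1 at 46h was 12.13 FPKM in replicate 3 against 5.69 to 6.30 in the others, BID at 46h was 0 in replicate 2, and BAD at 22h was 0.14 FPKM in replicate 4 with the others at 0. Without replicate 3 of 46h the log2 fold change of BCL2L1 at 46h against 0h was -2.45. Of the other genes, BCL2L2 at 46h was 10.11 FPKM in replicate 1, GSK3B at 46h was 1.55 in replicate 2, VDAC3 at 0h was 190.77 in replicate 4 (the low one) and MDM4 at 46h was 3.06 in replicate 1.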

How the results depend on the processing

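BCL2L1 kept its direction and its side of the thresholds in all 3 comparisons under all 23 alternatives. With no filter on low values, listed genes called numbered 1 in place of 0 at 22h against 0h (9.71% of all 17633 genes were called there) and 2 in place of 1 at 46h against 0h (24.9% of all), BAD being the added one. With a mean of at least 5 FPKM, 2546 of all 4144 genes in the fit were called at 46h against 0h. The calls there were 2 in place of 4 for the other family genes, 1 in place of 2 for the caspase inhibitors, 1 in place of 3 for MCL1 turnover and 3 in place of 5 for damage sensing, as genes leave the fit, and BNIP3, PMAIP1 and BCL2L13 gave no value. With quantile normalization (4666 of all 7013 genes called) they were 2 for the other family genes and 1 in place of 2 for the caspases and apoptosome. They rose to 3 in place of 2 for the caspase inhibitors and to 4 in place of 3 for MCL1 turnover. The caspases and apoptosome also gave 1 with median-of-ratios scaling (4358 of all 7013 called), and the cause was not tested. With each library left out, calls of caspase inhibitors and of the caspases and apoptosome each ranged from 1 to 2 at 46h against 0h. In these fits 3791 to 3942 of all genes tested were called. Listed genes under the filter with an exact p under 0.05 ranged from 0 to 1 for 22h and 0h, from 0 to 1 for 46h and 22h, and from 0 to 2 for 46h and 0h (BAD and BID), where 3 libraries against 4 allow few arrangements. With all libraries, 4.6%, 8.41% and 14.4% of all 10620 such genes were lower at an exact p under 0.05 in these comparisons.

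Uncalled values changed sign as follows. BCL2L2 at 22h against 0h was 0.0245 with quantile normalization and ranged from -0.46 to 0.51 with each library left out, and at 46h against 0h from -0.96 to 0.0067. BCL2L14 at 46h against 22h was 0.27 with median-of-ratios scaling, 0.38 with quantile normalization and -0.21 to 0.0904 with each library left out. PMAIP1 at 46h against 22h was 0.0689 and BCL2L13 at 46h against 0h was 0.15 with quantile normalization. Over all genes, the median change from 0h to 46h was 0.06 in log2 with median-of-ratios scaling, 0.37 after quantile normalization and -0.25 as deposited. With a replicate block, 1801, 2933 and 3894 genes were called at 22h against 0h, 46h against 22h and 46h against 0h, against 1873, 2975 and 3922, and the block changed no call of a listed gene. The numbers share no label, and same-numbered libraries correlated from -0.47 to 0.38, with 3 of 12 correlating best with their own number, all 3 of them among the 4 pairs of 46h and 22h (0.009 to 0.381). Depth is unknown, so no counting error can be given for values near 0 FPKM.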
